A study of Mus musculus with 12 samples.

Results

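The core genes of the circadian clock were read in liver RNA-seq libraries of mice given BIBB-515, an inhibitor of lanosterol synthase, or a control diet. The genes were taken by symbol as parts of the clock. They are 10 of the 24062 genes in the count tables. Arntl, Clock, Npas2 and Cry1, whose liver transcripts are known to peak in the late night or around dawn, are called dawn phase genes here. Nr1d1, Nr1d2, Dbp, Per3, Per1 and Per2, which peak in turn from the middle of the day to dusk, are called day to dusk genes. The phases are background knowledge and were not measured.

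The 12 mice were female C57BL/6J animals that arrived at 6 weeks of age, acclimated for 2 weeks and ate the control diet for 3 days before the experiment. For 10 days, 6 mice then received BIBB-515 in the diet at 55 mg/kg body weight and 6 stayed on the control diet, under a 12-hour light cycle. The paper describes 11 mice in each group, and the 12 mice read here are those with libraries. They are named by their replicate numbers, 1 to 6 for control and 6 to 11 for BIBB-515. The labels give no time of tissue collection, cage or sequencing batch for any mouse, and each mouse was sampled once, so diet, collection time and the phase or amplitude of a rhythm cannot be told apart in a difference between the groups.

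In the clock of mammalian cells, the protein of Arntl, BMAL1, pairs with CLOCK or with its close relative NPAS2 and switches on genes that carry E-box sequences. Among these are the Per and Cry genes, whose proteins then block the pair, and Nr1d1 and Nr1d2, which encode the REV-ERB receptors that repress Arntl. Dbp is another target of the pair, and its protein binds D-box sequences. In liver the transcripts of Arntl and Dbp peak in opposite phases, while Cry1, also a target, peaks late.

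Total counts on genes ran from 22764819 to 27914647 over the control mice and from 24223939 to 31058370 over the BIBB-515 mice (p = 0.121 in an exact permutation test, two-sided). Levels are given in CPM, counts scaled to library size with TMM factors. A gene was tested if it reached 1 CPM in at least 2 of the 12 mice, which 12481 genes and all 10 clock genes did. Npas2 had few reads, from 16 to 145 counts in a mouse, while each of the other 9 genes had at least 77 counts in every mouse. Alb, which encodes the main plasma protein made by hepatocytes, held between 81798 and 127477 CPM in every mouse.

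With edgeR's quasi-likelihood test, 0 of the 10 clock genes differed between the diets at a false discovery rate (FDR) of 0.05, while 13.7% of all tested genes did, 7.18% higher and 6.48% lower with BIBB-515. The groups overlapped for all 10 genes, whereas they did not overlap for 7.07% of the tested genes. Without adjustment, 2 of the 10, Cry1 and Nr1d2, had a p under 0.05, against 29.7% of the tested genes. DESeq2 also called 0 of the 10, with 2 under an unadjusted p of 0.05, and limma-voom called 0, with 1. Leaving out control mouse 4 gave 1 call, that of Cry1. The dawn phase genes had 2 positive and 2 negative log2 fold changes with a median of 0.19, and the day to dusk genes had 2 positive and 4 negative ones with a median of -0.26. The median over all tested genes was -0.01. Single mice moved both medians. That of the dawn phase genes was -0.03 without BIBB-515 mouse 6, 0.10 without control mouse 2 and 0.32 without control mouse 6, and that of the day to dusk genes was -0.14 without control mouse 2.

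**Figure D1:**
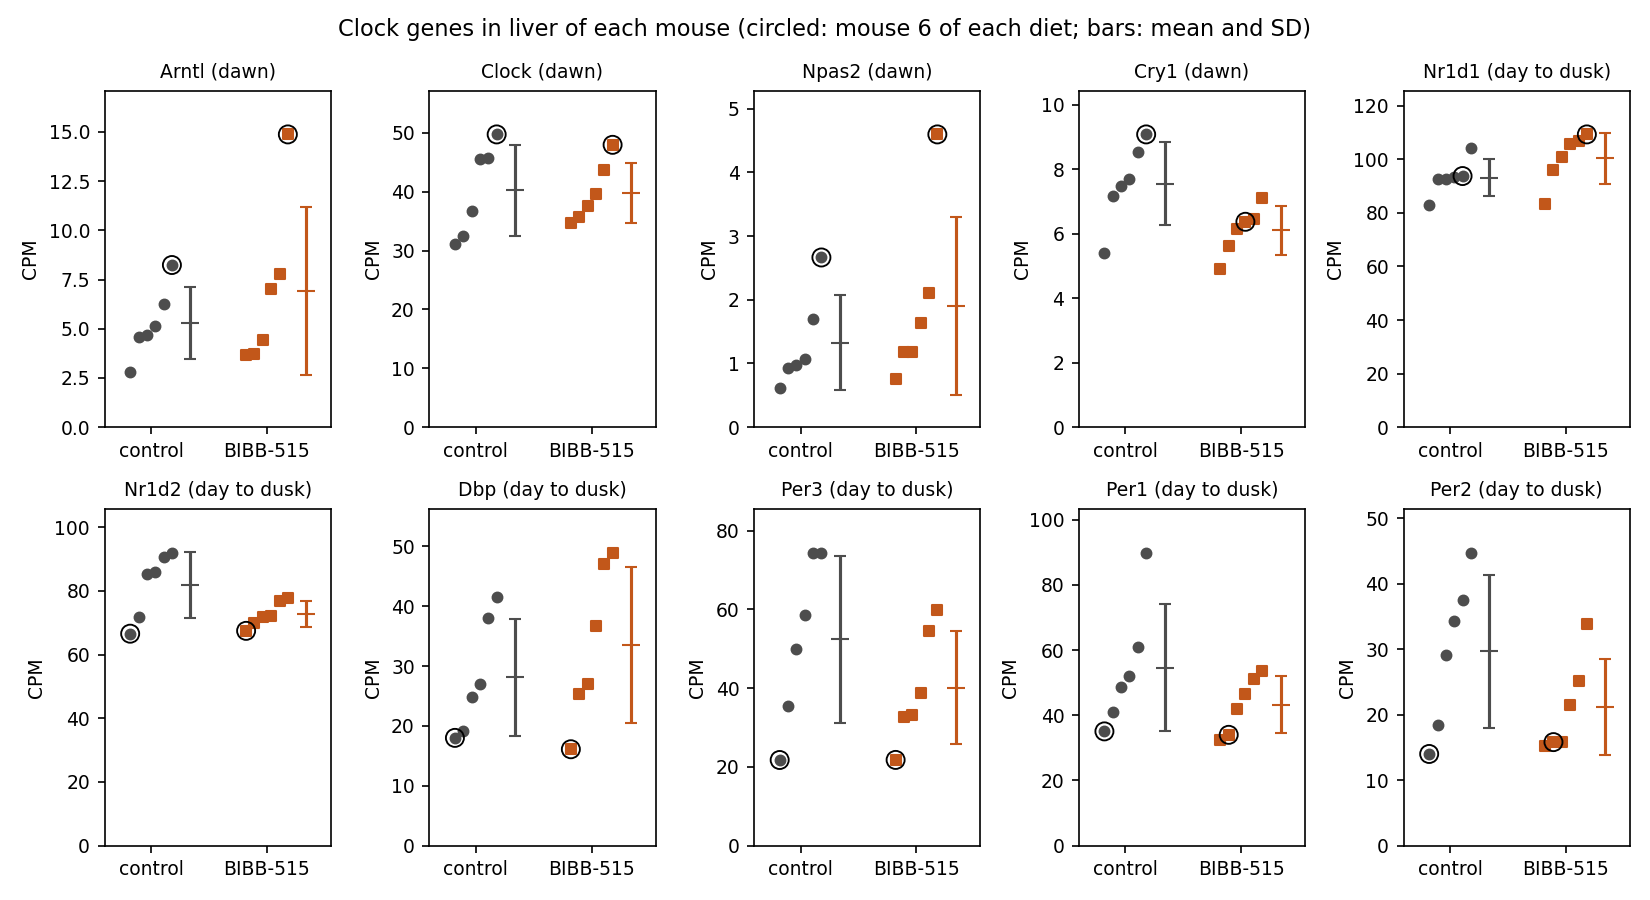
CPM of each clock gene in each mouse, by diet, on linear axes that start at 0, with points in order of value and the mean and SD of 6 mice beside them. Circles mark mouse 6 of each diet, which held the highest Arntl, Clock and Npas2 and the lowest Nr1d2, Dbp and Per3 of its diet, and the groups overlap in all 10 panels.

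Arntl lies on chromosome 7 from 113207465 to 113314126 (mm10, plus strand). Its level in the control mice ranged from 2.79 to 8.24 CPM with a median of 4.91, and in the BIBB-515 mice from 3.67 to 14.9 CPM with a median of 5.74. The highest value of each diet was that of its mouse 6, and 3 of the 6 BIBB-515 mice were below the control mean. Control mice averaged 5.28 ± 1.83 CPM and BIBB-515 mice 6.92 ± 4.26 CPM (SD, n = 6 each), for a log2 fold change of 0.40 with a standard error of 0.33 (FDR 0.460, edgeR). The 95% interval of this difference ran from -0.32 to 1.11, that is from a fold of 0.802 to one of 2.16. Without BIBB-515 mouse 6 the log2 fold change was 0.01, and without control mouse 6 it was 0.58.

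Npas2, which encodes the alternative partner of BMAL1, is on chromosome 1 from 39194272 to 39363240. It had the lowest level of the 10 genes, 0.619 to 2.67 CPM in the control mice with a median of 1.03, and 0.749 to 4.60 CPM in the BIBB-515 mice with a median of 1.41. Its highest values were again those of mouse 6 of each diet. The log2 fold change of Npas2 was 0.54 with a standard error of 0.43 (FDR 0.434, edgeR), with a 95% interval from -0.38 to 1.45, and it was 0.04 without BIBB-515 mouse 6 and 0.87 without control mouse 6.

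Clock, on chromosome 5 from 76209868 to 76304792, varied much less than its partner Arntl. It ranged from 31.2 to 49.7 CPM in the control mice and from 34.6 to 48.0 CPM in the BIBB-515 mice, around medians of 41.1 and 38.6. Its log2 fold change was -0.01 with a 95% interval from -0.27 to 0.25 (FDR 0.959, edgeR), or folds of 0.829 to 1.19.

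Cry1 encodes a repressor of the BMAL1 pair and is the latest of the repressor genes to peak. It lies on chromosome 10 from 85131700 to 85185054. The control mice held 5.39 to 9.09 CPM of Cry1 with a median of 7.59, and the BIBB-515 mice 4.92 to 7.11 CPM with a median of 6.26. All 6 BIBB-515 mice were below the control mean, but control mouse 4 was lower than all but 1 of them. The log2 fold change of Cry1 was -0.31 with a standard error of 0.12 (edgeR, unadjusted p = 0.0246 and FDR 0.109), and exact permutation of the log2 CPM values, two-sided, gave p = 0.0455. Without control mouse 4 its log2 fold change was -0.38 (FDR 0.0294), and over all fits that left out 1 mouse the FDR of Cry1 lay between 0.0294 and 0.221.

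Nr1d1, the gene of REV-ERB alpha, lies on chromosome 11 from 98767932 to 98775377. It was even across the mice, from 82.8 to 104.1 CPM in the control mice around a median of 93.0, and from 83.3 to 109.3 CPM in the BIBB-515 mice around a median of 103.3. Of the BIBB-515 mice, 5 of 6 were above the control mean. The log2 fold change was 0.11 with a 95% interval from -0.05 to 0.26 (FDR 0.360, edgeR). In the GENCODE annotation 9.51% of the exonic bases of Nr1d1 are shared with Thra on the opposite strand, and the counts carry no strand, so reads of both genes cannot be told apart there.

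Nr1d2, the gene of REV-ERB beta on chromosome 14 from 18204056 to 18239106, held 66.6 to 92.0 CPM in the control mice with a median of 85.6 and 67.5 to 77.9 CPM in the BIBB-515 mice with a median of 71.9. All 6 BIBB-515 mice were below the control mean, while control mice 5 and 6 lay within the BIBB-515 range or below it. Its log2 fold change was -0.17 with a standard error of 0.08 (unadjusted p = 0.0492 and FDR 0.166, edgeR), and the exact permutation test gave p = 0.0714.

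Dbp encodes a PAR bZIP activator that carries the rhythm to many liver genes, and lies on chromosome 7 from 45705247 to 45710203. It ranged from 18.0 to 41.6 CPM in the control mice with a median of 25.9, and from 16.1 to 48.9 CPM in the BIBB-515 mice with a median of 31.9. The lowest value of each diet was that of its mouse 6. The log2 fold change of Dbp was 0.25 with a standard error of 0.26 (FDR 0.570, edgeR), with a 95% interval from -0.31 to 0.82. It was 0.11 without BIBB-515 mouse 7 and 0.40 without control mouse 2. In the authors' annotation 1 of its 4 exons overlaps Sphk2, and reads on the shared bases are missing from the counts. The 3 exons of Dbp without overlap had a median log2 ratio of 0.28.

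The 3 Per genes encode partners of the CRY repressors and have the latest peaks among the day to dusk genes. Their log2 fold changes were all negative and none passed the test. Per3, on chromosome 4 from 151003655 to 151044665, ranged from 21.8 to 74.4 CPM in the control mice with a median of 54.3, and from 21.8 to 59.8 CPM in the BIBB-515 mice with a median of 36.0. Its log2 fold change was -0.38 with a 95% interval from -0.99 to 0.22 (FDR 0.398, edgeR), and the lowest value of each diet was that of its mouse 6.

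Per1, which also responds to glucocorticoids, lies on chromosome 11 from 69098956 to 69109957. It ranged from 35.0 to 89.8 CPM in the control mice with a median of 50.4, and from 32.4 to 53.6 CPM in the BIBB-515 mice with a median of 44.3. All 6 BIBB-515 mice were below the control mean of 54.6 ± 19.4 CPM (SD, n = 6), a mean that control mouse 2 raised with the highest value. The log2 fold change of Per1 was -0.34 (FDR 0.275, edgeR), and it was -0.14 without control mouse 2.

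Per2 lies on chromosome 1 from 91415982 to 91459328. The control mice held 14.0 to 44.7 CPM of Per2 with a median of 31.7, and the BIBB-515 mice 15.3 to 33.9 CPM with a median of 18.7. Of the BIBB-515 mice, 5 of 6 were below the control mean, and BIBB-515 mouse 7 was above it. The log2 fold change was -0.48 with a standard error of 0.27 (FDR 0.244, edgeR), and its 95% interval ran from -1.05 to 0.09. It was -0.32 without control mouse 4 and -0.67 without BIBB-515 mouse 7.

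**Figure D2:**
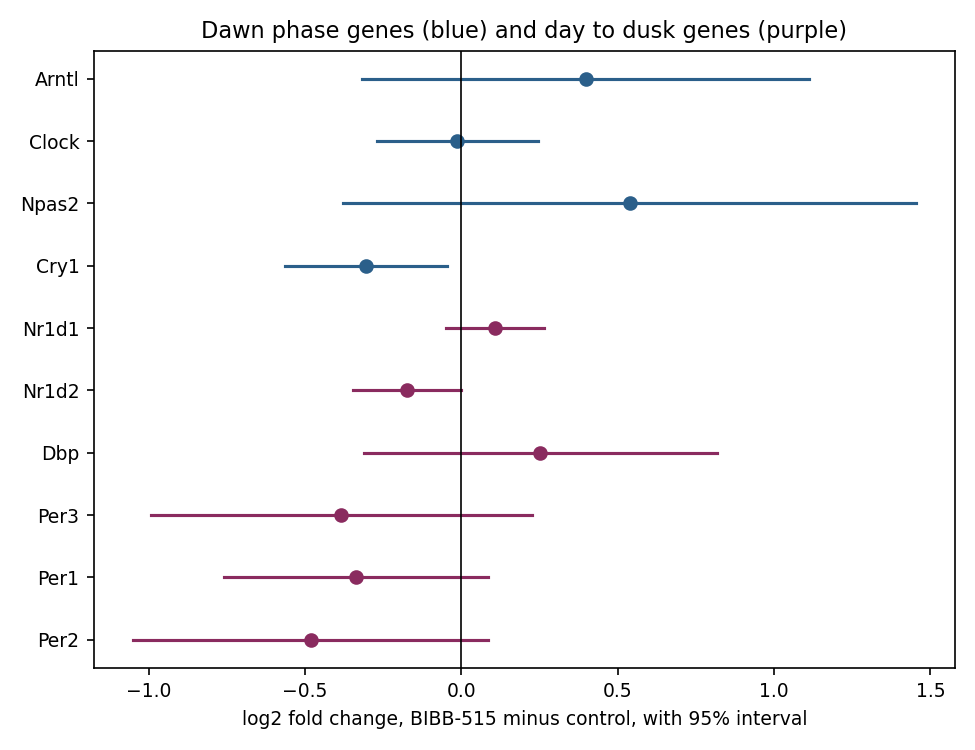
Log2 fold change of each clock gene, BIBB-515 minus control, with the 95% interval of edgeR's quasi-likelihood fit, dawn phase genes in blue and day to dusk genes in purple. Of the 4 dawn phase genes 2 lie on each side of 0, of the 6 day to dusk genes 2 lie above and 4 below it, and Npas2 and Arntl have the widest intervals.

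Single exons were read from the exon tables. Among exons with a mean of at least 10 counts, 12 of 12 of Arntl were higher on average with BIBB-515, as were 8 of 8 of Nr1d1 and the 3 exons of Dbp that overlap no other gene. The fourth exon of Dbp is shared with Sphk2, and its reads cannot be assigned to either gene. All 21 such exons of Per3, 1 of them listed with 2 ends, and all 22 of Per1, 21 of Per2 and 12 of Cry1 were lower. Clock had 6 higher and 10 lower, Nr1d2 had 2 and 6, and the 1 such exon of Npas2 was higher. Exons of a gene share its RNA and its mice, so these counts describe where the reads lie and are not separate measurements.

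Per length of transcript, as RPKM, in which CPM are divided by the length of the exons, Nr1d1 had the highest median of the 10 genes, 34.3 RPKM over the 12 mice with a range of 29.9 to 39.5. Dbp and Nr1d2 followed with medians of 16.1 RPKM each, and their order turned between the diets. In the control mice the medians were 15.5 RPKM for Dbp and 18.4 for Nr1d2, and in the BIBB-515 mice 19.0 and 15.5. However, reads on the Dbp exon shared with Sphk2 are lost. Over the 1139 bases of its other exons, a length chosen after seeing the data, Dbp had a median of 23.7 RPKM and a range of 14.1 to 42.9, which overlapped that of Nr1d1 and exceeded it in 3 mice. Per1 had a median of 10.1 RPKM, Per3 7.33 and Per2 4.00, and each of these ranges overlapped that of its neighbour. Clock, at 3.89 RPKM, overlapped Per2 but lay above Cry1, at 2.25 RPKM, in every mouse. The order of Per2 and Clock turned between the diets. Per2 had a median of 5.44 RPKM in the control mice and 3.20 in the BIBB-515 mice, and Clock 4.14 and 3.89. Arntl, at 1.69 RPKM with a range of 0.958 to 5.11, overlapped Per3, Per2, Clock, Cry1 and Npas2, the last with a median of 0.281 RPKM. In BIBB-515 mouse 6 Arntl, at 5.11 RPKM, was above Clock, at 4.83 RPKM.

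For each clock gene but Cry1 and Nr1d2, the SD of log2 CPM between mice of a diet was larger than the difference between the diets. Arntl spanned a 2.96-fold range among the control mice and a 4.05-fold range among the BIBB-515 mice, and Npas2 spanned 4.30-fold and 6.14-fold ranges. Per3 spanned 3.42-fold and 2.74-fold ranges, while Nr1d1 spanned only 1.26-fold and 1.31-fold. The SD of log2 CPM within diets was 0.66 for Arntl, above that of 99.2% of the 1564 tested genes whose average log2 CPM is within 0.5 of its own. The corresponding share was 98.3% for Npas2, 98.8% for Dbp, 99.3% for Per3, 98.8% for Per2 and 96.5% for Per1. It was 88.6% for Clock, 65.2% for Cry1, 57.7% for Nr1d2 and 45.4% for Nr1d1, so the REV-ERB genes varied about as much between mice as other genes of their level.

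These differences between mice were shared by several genes. Control mouse 6 held the highest Arntl, Clock, Npas2 and Cry1 of the control mice and the lowest Nr1d2, Dbp, Per3, Per1 and Per2. BIBB-515 mouse 6 held the highest Arntl, Clock, Npas2 and Nr1d1 of its diet and the lowest Nr1d2, Dbp and Per3. At the other end, control mouse 2 had the lowest Arntl of the control mice and the highest Nr1d2, Dbp, Per3 and Per1, and BIBB-515 mouse 7 had the highest Nr1d2, Dbp, Per3, Per1 and Per2 of its diet and also the highest Cry1, a dawn phase gene.

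As a description of each mouse, the mean log2 CPM of the 6 day to dusk genes was subtracted from that of the 4 dawn phase genes. This contrast ranged from -3.64 to -1.70 in the control mice and from -3.45 to -1.47 in the BIBB-515 mice, with mouse 6 at the upper end of each. Its mean was -2.89 ± 0.73 (SD, n = 6) with the control diet and -2.64 ± 0.74 (SD, n = 6) with BIBB-515. The difference of 0.25 was smaller than the SD within either diet, and it was 0.01 without BIBB-515 mouse 6 and 0.49 without control mouse 6. The mean of the dawn phase genes alone differed by 0.10 and that of the day to dusk genes by -0.15, both also below the SDs within the diets. Both differences leaned on single mice. The first turned negative without BIBB-515 mouse 6, whose dawn phase mean was 3.60. The second was smaller without control mouse 2, with a day to dusk mean of 6.01, and larger without control mouse 6, at 5.03.

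Of the clock genes, 6 pairs were related to each other in each diet, 12 relations in all, with Benjamini-Hochberg adjustment over the 12. Arntl and Dbp, which peak at opposite times of day, were inversely related in both diets. In the control mice Pearson's r was -0.89 (exact permutation p = 0.00694, adjusted 0.025) and Spearman's rho was -0.94 (exact permutation p = 0.0167, adjusted 0.040). In the BIBB-515 mice r was -0.99 (exact permutation p = 0.00278, adjusted 0.0167) and rho was -0.94 (exact permutation p = 0.0167, adjusted 0.040). Without the 2 mice farthest from the median of Arntl, r was -0.83 and -0.98 over the 4 mice that remained.

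Dbp and Per3 were positively related across mice. In the BIBB-515 mice r was 0.99 (exact permutation p = 0.00139, adjusted 0.0167) and rho was 1 (exact permutation p = 0.00278, adjusted 0.0333), with an r of 0.96 without 2 mice. In the control mice r was 0.82 (exact permutation p = 0.0458, adjusted 0.110) and rho was 0.94 (exact permutation p = 0.0167, adjusted 0.040), with an r of 0.59 without 2 mice. Arntl and Npas2, both repressed by the REV-ERB receptors, had an r of 0.95 in the BIBB-515 mice (exact permutation p = 0.00833, adjusted 0.025) with a rho of 0.89 (exact permutation p = 0.0333, adjusted 0.0667). In the control mice their r was 0.72 (exact permutation p = 0.110, adjusted 0.219) and their rho 0.77 (exact permutation p = 0.103, adjusted 0.176). Without the 2 mice farthest from the median of Arntl, the r of Arntl and Npas2 was 0.90 in the control mice and 0.86 in the BIBB-515 mice.

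No relation of Nr1d1 to Arntl or Dbp passed the test, although its protein represses Arntl and its gene shares the E-box activators with Dbp. Arntl and Nr1d1 had an r of -0.09 in the control mice (exact permutation p = 0.865, adjusted 0.990) and of 0.07 in the BIBB-515 mice (exact permutation p = 0.881, adjusted 0.990), with rho at -0.14 and 0.14 (exact permutation p = 0.803, adjusted 0.963, for both). Without the 2 mice farthest from the median of Arntl, r was -0.33 and -0.55. Nr1d1 and Dbp had an r of 0.07 and -0.01 (exact permutation p = 0.921 and 0.990, adjusted 0.990 for both), with rho at -0.09 and -0.03 (exact permutation p = 0.919 and 1, adjusted 1 for both). Without the 2 mice farthest from the median of Nr1d1, r was -0.23 in the control mice and -0.68 in the BIBB-515 mice. Arntl and Cry1 had an r of 0.55 in the control mice (exact permutation p = 0.247, adjusted 0.424) and of 0.21 in the BIBB-515 mice (exact permutation p = 0.678, adjusted 0.990), and a rho of 0.94 (exact permutation p = 0.0167, adjusted 0.040) and 0.31 (exact permutation p = 0.564, adjusted 0.846). Without the 2 mice farthest from the median of Arntl, the r of Arntl and Cry1 was 0.74 in the control mice and turned to -0.60 in the BIBB-515 mice. A difference between the diets in any of these relations was not tested, and 6 mice a diet leave wide room around each r.

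**Figure D3:**
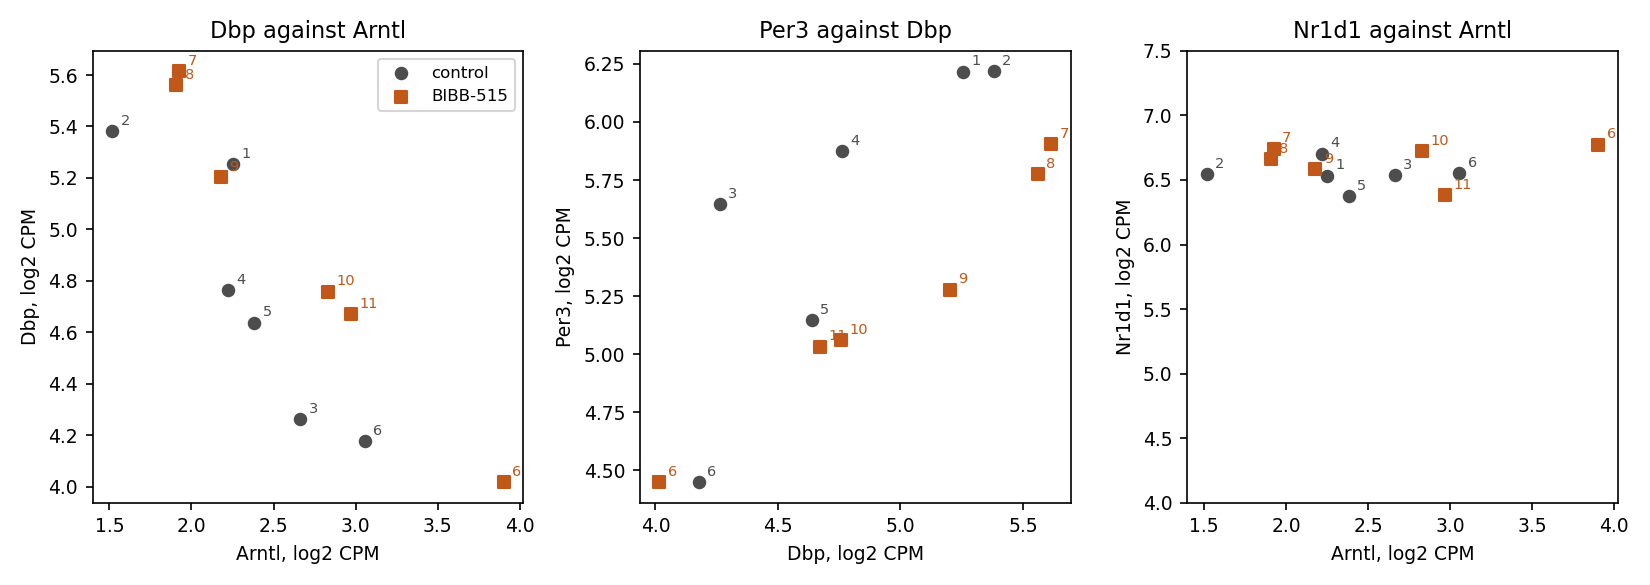
Log2 CPM of pairs of clock genes in each mouse, with control mice as circles, BIBB-515 mice as squares and replicate numbers beside the points. Dbp falls as Arntl rises in both diets (r of -0.89 and -0.99), Per3 and Dbp have an r of 0.82 and 0.99, and the r of Nr1d1 with Arntl is -0.09 and 0.07.

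Over the whole table, the genes whose pattern across mice was most like that of Arntl or Dbp were found from log2 CPM with the mean of each diet removed, over 12 mice and 11160 tested genes outside the 10 whose average log2 CPM was 1 or more. These r values rank genes and carry no test. Most like Arntl were Cited2, which encodes a coregulator of CBP and p300 (r = 0.95), the ubiquitin ligase gene Lnx2 (0.92), the SWI/SNF subunit gene Smarcd1 (0.92), the lysyl oxidase gene Loxl4 (0.91) and Net1 (0.90). Cited2 ranged from 13.6 to 20.9 CPM and Loxl4 from 2.42 to 7.26 CPM over the 12 mice. Most opposite to Arntl were Tef (r = -0.90), Slc5a6, the sodium-dependent multivitamin transporter gene (-0.89), Coq10b (-0.89), Rabl6 (-0.88) and Cyp46a1, the gene of cholesterol 24-hydroxylase (-0.87). Slc5a6 also passed the test between the diets, with a log2 fold change of 0.55 (FDR 0.0243, edgeR).

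Most like Dbp was Tef (r = 0.92), which encodes a PAR bZIP factor of the same family, followed by Coq10b (0.90), the tetraspanin gene Tspan4 (0.88), Btbd2 (0.85) and the zinc finger gene Zfp28 (0.84). Tef ranged from 108.2 to 215.8 CPM and Coq10b from 18.5 to 53.5 CPM. Most opposite to Dbp were the galectin-like gene Lgalsl (r = -0.96), Cited2 (-0.93), Loxl4 (-0.92), the threonyl-tRNA synthetase gene Tars (-0.90) and the sorting nexin gene Snx24 (-0.89). Tef, Coq10b, Cited2 and Loxl4 thus appeared at the ends of both rankings. By the same measure Arntl and Dbp themselves had an r of -0.95, and Arntl had an r of 0.87 with Npas2, -0.84 with Per3 and 0.02 with Nr1d1.

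Of 15 other clock genes listed, 13 were tested, and 2 of these fell with BIBB-515 while 0 rose. Rora, the gene of the receptor that opposes the REV-ERB proteins on Arntl, fell from 60.3 ± 4.93 to 50.6 ± 3.60 CPM (SD, n = 6 each), a log2 fold change of -0.25 (FDR 0.0249, edgeR). Its call was lost without control mouse 1 or BIBB-515 mouse 7, 9 or 10, with an FDR of up to 0.0628. Nfil3, whose protein competes with DBP for D-boxes, fell from 13.3 ± 4.65 to 8.25 ± 1.51 CPM (SD, n = 6 each), a log2 fold change of -0.69 (FDR 0.0382, edgeR). Nfil3 stayed under an FDR of 0.05 in only 4 of the 12 fits that left out 1 mouse, without control mouse 2, 3 or 4 or BIBB-515 mouse 6, and had an FDR of 0.0612 with limma-voom. The groups overlapped for both genes, and 15.4% of this list was called, near the 13.7% of all tested genes.

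Of the 15 rhythmic liver output genes tested, 1 rose and 2 fell, or 20.0% against 13.7% of all tested genes. Insig2, which encodes a retention protein of the sterol sensing machinery, rose from 283 ± 74.0 to 532 ± 122 CPM (SD, n = 6 each), a log2 fold change of 0.91 (FDR 0.00413, edgeR), with groups that overlapped slightly, the highest control mouse at 373 CPM and the lowest BIBB-515 mouse at 367. Avpr1a, the liver vasopressin receptor gene, fell from 36.3 ± 7.39 to 19.9 ± 3.60 CPM (SD, n = 6 each), a log2 fold change of -0.87 (FDR 0.00133, edgeR), without overlap. Ccrn4l, the gene of the deadenylase-related protein nocturnin, fell from 47.9 ± 23.6 to 25.5 ± 6.95 CPM (SD, n = 6 each), a log2 fold change of -0.91 (FDR 0.0430, edgeR). Ccrn4l stayed under an FDR of 0.05 in only 4 of the 12 fits that left out 1 mouse, without control mouse 3, 5 or 6 or BIBB-515 mouse 7, and had an FDR of 0.0698 with limma-voom. The median log2 fold change of the list was -0.02.

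Some clock genes, Per1 and Per2 among them, also respond to stress hormones, temperature and acute stimuli, so lists of such genes were read in the same fit. Of 12 glucocorticoid responsive genes tested, a list that includes Per1 itself, 1 rose, Lcn2, which also marks an acute phase response, from 13.5 ± 6.18 to 31.1 ± 10.9 CPM (SD, n = 6 each; FDR 0.0127, edgeR), or 8.33% of the list against 13.7% of all tested genes. Of 7 temperature responsive genes tested 2 fell, or 28.6% against the same 13.7%. These were the heat shock genes Hsph1 and Hsp90aa1, with log2 fold changes of -0.57 (FDR 0.0146, edgeR) and -0.36 (FDR 0.0347, edgeR). Hsp90aa1 kept an FDR under 0.05 in 4 of the 12 fits that left out 1 mouse, without control mouse 2 or 6 or BIBB-515 mouse 6 or 10. Of 8 immediate early genes tested, 0 passed, and their lowest FDR was 0.0663 (edgeR). The part of these genes in the clock gene values was not tested.

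Markers of the cell types of liver were summed in each mouse. Fewer cells of a type and less RNA per cell cannot be told apart in such bulk samples. The 4 hepatocyte markers in the tables, led by Alb, summed to 136142 to 151758 CPM in the control mice and to 101087 to 115885 CPM in the BIBB-515 mice (p = 0.00216, two-sided exact permutation, which is the lowest p possible with 6 mice in each group), and 2 of the 4, Alb and Ttr, fell with log2 fold changes of -0.40 (FDR 0.0129, edgeR) and -0.49 (FDR 0.00391, edgeR). With no filter on low counts the FDR of Alb was 0.0591. The share of all tested genes that were called was 13.7%. The 5 stellate cell markers, led by Dcn, summed to 256.1 to 355.3 CPM and 242.7 to 288.9 CPM (exact permutation p = 0.0130), and 2 of the 5 fell, Lrat with a log2 fold change of -0.81 (FDR 0.0202, edgeR) and Dcn with one of -0.27 (FDR 0.0398, edgeR). Dcn kept an FDR under 0.05 in 4 of the 12 fits that left out 1 mouse, without control mouse 2 or 5 or BIBB-515 mouse 6 or 11, and had an FDR of 0.0518 with upper-quartile normalization and 0.0620 without the filter.

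The 5 bile duct markers, led by Spp1, summed to 62.6 to 115.7 CPM in the control mice and 91.9 to 154.3 CPM in the BIBB-515 mice (exact permutation p = 0.0325), with 0 of the 5 past the FDR. Spp1 alone averaged 82.6 and 111.8 CPM. Of the 5 markers, 3 had positive log2 fold changes, Spp1 (0.44), Sox9 (0.31) and Epcam (0.08), and 2 had negative ones, Krt19 (-0.50) and Krt7 (-0.15). Endothelial markers, led by Stab2, summed to medians of 182.5 and 174.3 CPM (exact permutation p = 0.392), and Kupffer cell markers, led by Clec4f, to medians of 304.3 and 351.5 CPM (exact permutation p = 0.610), with 0 of 5 and 0 of 4 past the FDR. Lymphocyte markers, led by Ptprc, stayed at or below 20.1 CPM in sum (exact permutation p = 0.184), with 0 of the 3 tested past the FDR. Blood cell markers, led by Alas2, stayed at or below 15.6 CPM (exact permutation p = 0.327), with the 1 tested gene, Alas2, not past the FDR. The globin genes Hba-a1, Hba-a2, Hbb-bs and Hbb-bt were listed at 0 in every mouse, but the counts leave out multimapping reads and reads shared by overlapping genes, which near-identical genes can lose, so this sum is that of Alas2 and the blood content of the samples was not measured. The 4 fat markers, led by Cfd, summed to at most 0.161 CPM in any mouse, and 0 of them could be tested. The part of cell makeup in the clock gene values was not tested.

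For 9 of the 10 genes the sequence around a single transcript start was read, in RefSeq sequences of GRCm38.p6. It ran from 250 bases before the start to 50 after it. The set of promoters held 2 for Arntl, 3 for Clock and 2 for Per1. For these genes only the promoter nearest the start in the authors' annotation was searched. Per2 was not matched in the set of promoters used here, so its promoter was not read. Both strands were searched for the E-box CACGTG and its variant E′-box CACGTT, both bound by the BMAL1 pair, for the D-box TTANGTAA, bound by DBP and TEF, for AGGTCA, the core recognized by the REV-ERB and ROR receptors and by other nuclear receptors, and for the cAMP response element TGACGTCA. Of 32851 mouse promoters of this length, 7.15% held the E-box, 4.68% the E′-box, 2.32% the D-box, 16.3% the receptor core and 1.79% the cAMP response element. No matches overlapped among the 9 genes. The E-box was found in 2 of the 9, Cry1 and Per1, the E′-box in Cry1 and Nr1d1, the D-box in Per3 alone, the receptor core in Nr1d2 and Per1, and the cAMP response element in 0 of the 9. The windows of Arntl, Clock, Npas2 and Dbp held none of these letters, which says nothing of sites elsewhere.

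Per3, Cry1, Per1 and Nr1d1 are shown because their windows hold the D-box, E-box or E′-box matches, with matches in capitals and each sequence on the strand of its gene. Per3 holds the D-box letters starting 205 and 158 bases before its transcript start (chr4:151044616-151044915, minus strand). Cry1 holds the E′-box on the opposite strand and the E-box 79 and 60 bases before its start (chr10:85185005-85185304, minus strand). Per1 holds the E-box 166 bases and the receptor core on the opposite strand 137 bases before the start read here (chr11:69098699-69098998, plus strand). GENCODE begins Per1 further upstream, at 69095217. The Per1 exon at the start read here averaged 1.5 counts over the 12 mice, the next 0.5 and the one after 84.25. Which start the livers used was not tested. Nr1d1 holds the E′-box on the opposite strand 28 bases before its start (chr11:98775328-98775627, minus strand).
Per3: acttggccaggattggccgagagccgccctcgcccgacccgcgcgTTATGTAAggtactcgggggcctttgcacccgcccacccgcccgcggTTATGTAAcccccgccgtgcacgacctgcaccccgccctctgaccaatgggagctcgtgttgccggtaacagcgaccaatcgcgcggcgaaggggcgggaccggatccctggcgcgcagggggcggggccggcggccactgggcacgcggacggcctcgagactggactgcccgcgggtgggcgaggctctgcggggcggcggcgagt
Cry1: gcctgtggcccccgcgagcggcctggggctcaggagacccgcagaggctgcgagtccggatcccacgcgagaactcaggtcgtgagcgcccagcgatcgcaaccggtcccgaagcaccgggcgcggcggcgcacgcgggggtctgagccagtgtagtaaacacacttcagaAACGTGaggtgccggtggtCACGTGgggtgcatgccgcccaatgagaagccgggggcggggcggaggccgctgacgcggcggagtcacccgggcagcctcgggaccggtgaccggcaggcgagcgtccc
Per1: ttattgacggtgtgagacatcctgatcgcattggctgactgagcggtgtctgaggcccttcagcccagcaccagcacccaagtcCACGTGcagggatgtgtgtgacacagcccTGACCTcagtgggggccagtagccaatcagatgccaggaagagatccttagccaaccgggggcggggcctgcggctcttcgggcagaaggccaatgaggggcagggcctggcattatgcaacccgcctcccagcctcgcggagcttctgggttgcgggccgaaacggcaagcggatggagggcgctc
Nr1d1: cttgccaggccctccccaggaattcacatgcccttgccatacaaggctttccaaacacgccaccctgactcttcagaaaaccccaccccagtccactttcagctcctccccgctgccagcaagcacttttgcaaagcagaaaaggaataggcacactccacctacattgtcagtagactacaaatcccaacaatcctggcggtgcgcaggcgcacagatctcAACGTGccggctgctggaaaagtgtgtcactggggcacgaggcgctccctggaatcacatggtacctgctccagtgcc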

How the data were processed

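The authors deposited, for each of 12 liver libraries, raw counts of reads per gene. Per the file headers these were made with featureCounts of Subread 1.6.3 on a UCSC annotation of mm10, summed over exons, without strand, leaving out multimapping reads and reads shared by overlapping genes. The submitters' processing notes name STAR 2.5.3a. Exon tables and tables of primary alignments were used as described, and transcript tables were not analysed here.

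Genes that reached 1 CPM in 2 or more mice were kept, scaled by TMM and tested for diet alone with glmQLFit and glmQLFTest (edgeR 4.0.16, R 4.3.3), with Benjamini-Hochberg adjustment (FDR) over all 12481 genes. CPM, RPKM and log2 CPM (prior count 2) were computed from the counts. Single values were compared by exact permutation over 924 labelings, and relations over 720 pairings, on log2 CPM. The fit was tested on simulated data in which 200 genes had a log2 fold change of 1 in either direction. It recovered 95.5% of them, and 5.91% of the genes called were false. Smaller changes, such as those estimated for the clock genes, were not simulated. Every pair of libraries of a diet differed by more than sampling noise (lowest chi-square per degree of freedom 12.7).

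Named genes are the 10 members, the members of the other lists past an FDR of 0.05 (at most 4 per list, those of lowest p), and the 5 highest and 5 lowest by r with Arntl and with Dbp. The bile duct markers, the leading gene of each marker list, the globin genes, Ciart and Upp2 are named outside this rule, after their values were seen. The members and lists were chosen with earlier results of these data known. The alternatives tried were upper-quartile normalization, DESeq2 1.42.0, limma-voom (limma 3.58.1), no filter, a filter of 1 CPM in 6 mice, the primary alignment tables, 1 surrogate variable (sva 3.50.0) and leaving out each mouse.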

Additional observations from a re-analysis of the deposited data

Results flagged for a closer look

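In the 22 groups of 6 values examined, total counts and the 10 clock genes in each diet, 2 held a mouse far from the others by Dixon's criterion, where chance gives about 1 in 20 groups, or 1.1 here. Both were BIBB-515 mouse 6. Its Arntl level, 14.9 CPM, stood above the other 5 mice of the diet by 0.635 of the whole range, and its Npas2 level, 4.60 CPM, by 0.649 of the range. On log2 CPM the gaps were 0.467 and 0.441 of the range, which is below the criterion. The values of both genes come from the same library, so these are not separate occurrences. The same mouse had the lowest Dbp of its diet, 16.1 CPM, and its total count, 30834988, was within the range of the other libraries. Without it the log2 fold change of Arntl was 0.01 (FDR 0.985, edgeR) and that of Npas2 was 0.04 (FDR 0.956, edgeR). Why this mouse differs was not tested.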

How the results depend on the processing

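The number of clock genes called was 0 in the 7 alternatives that kept all mice. It was 0 to 1 across the 12 fits that left out 1 mouse. Except for Clock, every clock gene kept the sign of its log2 fold change in all 19 alternatives, and none but Cry1 was ever called. Cry1 lay between -0.38 and -0.24 when 1 mouse was left out. Clock, whose value is near 0, turned positive with limma-voom (0.00030) and with 1 surrogate variable (0.011), and lay between -0.073 and 0.065 when 1 mouse was left out. The causes were not tested. The number of all genes called was 1705, and 1199 to 1865 without 1 mouse, 1489 with no filter, 2244 with DESeq2 and 2439 with 1 surrogate variable. The contrast of dawn phase and day to dusk genes differed by 0.25 between diets from the main tables and by 0.25 from the tables of primary alignments, but by 0.01 without BIBB-515 mouse 6 and by 0.49 without control mouse 6, the range over all 12 mice left out, a check chosen after seeing the data. Without the 2 mice farthest from the median of the first gene, r turned to -0.55 for Arntl and Nr1d1 and -0.60 for Arntl and Cry1 in the BIBB-515 mice, and to -0.23 for Nr1d1 and Dbp in the control mice, and went from -0.01 to -0.68 for Nr1d1 and Dbp in the BIBB-515 mice. Over the 4 mice left, the lowest exact permutation p of the 12 relations was 0.0417 (adjusted 0.25), the smallest that 4 mice allow. No paired analysis was possible because the diets share only 1 replicate number, 6. With 6 mice a diet, the 95% intervals leave room for folds of up to 2.16 for Arntl and 2.74 for Npas2. The counts of Npas2 were 16 to 145, and its SD within diets, 0.79 on the log2 scale, was above that of 98.3% of genes of similar level.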

Other observations

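Per3 relative to Dbp, both day to dusk genes, was chosen for this paragraph after its values were seen and is given without a test. The log2 CPM of Per3 minus that of Dbp was 0.27 to 1.38 in the control mice, with a mean of 0.85 ± 0.40 (SD, n = 6), and 0.08 to 0.43 in the BIBB-515 mice, with a mean of 0.28 ± 0.12 (SD, n = 6). Control mouse 6 lay within the BIBB-515 range and the other 5 control mice above it.

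Among the other clock genes, Ciart encodes a repressor of the BMAL1 pair and peaks near dusk. It ranged from 1.45 to 34.1 CPM with the control diet, with a median of only 5.46. With BIBB-515 it ranged from 3.57 to 16.9 CPM, with a median of 7.70. It and Upp2 were also singled out after their values were seen. For Ciart, the log2 fold change of -0.18 had a 95% interval from -1.45 to 1.08 (FDR 0.871, edgeR). Upp2, a uridine phosphorylase gene with a liver rhythm, spread over 159.6 to 776.0 CPM in the control mice but 504.5 to 661.7 CPM in the BIBB-515 mice. The log2 fold change of Upp2 was 0.64 with a 95% interval from 0.07 to 1.21 (FDR 0.122, edgeR). Whether these spreads differ was not tested.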
